A study of Homo sapiens with 24 samples.

Results

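The levels of 39 genes of the hypoxia-inducible factor 1 (HIF-1) pathway and of glycolysis were compared between YC-1 and its solvent DMSO in SNU1079 and RBE, 2 human cholangiocarcinoma cell lines. The genes were chosen by name, with earlier results of these data known, so shares of the list are described and not tested. Each matched 1 row of a table of 57820 rows. They comprise 21 glycolytic genes (with transporters of glucose and lactate and the kinase PDK1), 16 other HIF-1 targets, and HIF1A and EPAS1, which encode oxygen-regulated subunits of HIF. Of the 39, 38 were high enough to be tested, among 17860 genes in all. The glucose transporter SLC2A3 was not, with at most 13.5 normalised counts in an RBE library and 0 in 11 of the 12 SNU1079 libraries.

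Cholangiocarcinoma is a cancer of the bile ducts. Messenger RNA was sequenced in 8 groups of 3 libraries, which were YC-1 and DMSO at 16 h and at 6 h in each line. Both lines carry an IDH1 mutation and express the sulfotransferase SULT1A1, per the labels, so every group shares these features. The labels give neither a dose of YC-1 nor an oxygen level, and the 3 libraries of a group are repeats of 1 line, called biological replicates in the design text. Times follow the titles, with which the design text goes. Another label puts all DMSO libraries at 16 h and all YC-1 libraries at 6 h, so a comparison with both times pooled was run as an alternative.

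HIF-1 is a transcription factor built from an oxygen-regulated alpha subunit, encoded by HIF1A, and a constant partner, encoded by ARNT. In oxygen, prolyl hydroxylases mark the alpha subunit for destruction through the VHL ubiquitin ligase. In low oxygen it persists and switches on genes of glucose uptake, glycolysis, lactate export and vessel growth, as well as genes of its own hydroxylases. YC-1 is known as an inhibitor of HIF-1 and as an activator of soluble guanylate cyclase. HIF-1 alpha is regulated mainly as a protein, which messenger RNA does not show.

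Sums of normalised counts, the authors' depth-corrected values, ran from 19010000 to 27010000 per library. In SNU1079, 3 libraries were taken as standing apart from group mates (YC-1 16 h replicate 2, YC-1 6 h replicate 1 and DMSO 16 h replicate 1). Values without these 3 are given for members whose call they change or whose called value they move by over 1.5 times. They are also given where a member's extreme library is among the 3. YC-1 16 h replicate 3 correlated with its group mates as weakly as replicate 2 (mean r of 0.959 in each) but was kept in those values. Mitochondrial transcripts held 14.5% ± 9.87 of the signal in SNU1079 and 16.1% ± 0.827 in RBE with YC-1 at 16 h, against 7.57% ± 1.36 and 7.86% ± 0.275 with DMSO (SD, n = 3). In YC-1 replicate 2 of SNU1079 at 16 h the share was 3.38%, and in replicate 3 it was 22.1%. The bile duct keratins KRT7 and KRT19 were present in every group, with means of at least 22877 and 6018. The hepatocyte gene ALB and the leukocyte gene PTPRC had means of at most 4.13 and 4.69, but do not stand for their lists. Across all libraries the hepatocyte markers summed to 1140 to 2180 and the leukocyte markers to 10.8 to 156. The stromal and endothelial markers summed to 63.9 to 3860. Of 8 cholangiocyte markers 6 were tested, and at 16 h 4 were called higher in SNU1079 and 3 higher and 2 lower in RBE. Of all genes tested, 54.5% were called in SNU1079 and 53.9% in RBE at that time.

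Markers of other cell types also held calls at 16 h, when 54.5% of all genes were called in SNU1079 and 53.9% in RBE. Of 6 leukocyte markers 3 were high enough to be tested, and 2 were higher in SNU1079 (CD14 and ITGAM) and 1 in RBE (CD14). CD14 averaged 47.5 normalised counts with YC-1 and 0 with DMSO in SNU1079, and 36.4 and 1.28 in RBE. The leukocyte list summed to 65.4 to 95.8 with YC-1 and 10.8 to 26.1 with DMSO in SNU1079, and to 132 to 156 and 110 to 129 in RBE, while CD3E was at or near 0 in every group. Of 7 stromal and endothelial markers 4 were tested, and COL1A1 was lower in both lines and COL1A2 in RBE (listed at 0 in the YC-1 libraries, with a mean of 7.75 with DMSO). COL1A1 averaged 1101 with YC-1 and 2385 with DMSO in SNU1079, and 13.1 and 41.8 in RBE. That list summed to 734 to 1740 with YC-1 and 2040 to 2960 with DMSO in SNU1079, and to 84.8 to 98.2 and 63.9 to 124 in RBE. Of 6 hepatocyte markers 3 were tested and 1 was higher in each line, with sums of 1540 to 2180 and 1170 to 1350 in SNU1079 and 1860 to 1940 and 1140 to 1220 in RBE with YC-1 and DMSO. At 6 h the calls were CD14 higher in SNU1079 (2.01) and COL1A2 lower in RBE (-2.27), when 28.2% and 24% of all genes were called. The part of these markers, and of the cholangiocyte markers, in the results below was not tested.

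YC-1 did not move the HIF-1 target genes in 1 direction. The secreted factors ADM and VEGFA and the stress-induced gene NDRG1 rose in both lines at both times. In the same cells LDHA, PFKFB3, SLC16A3 and the HIF hydroxylase EGLN1 were lower in both lines at 16 h, SLC16A3 in SNU1079 with overlapping libraries and a call that several alternatives lost. Most enzymes between aldolase and pyruvate kinase were modestly higher at 16 h in the authors' scaling.

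At 16 h, 19 of the 38 tested genes were called higher and 7 lower in SNU1079, and 17 higher and 7 lower in RBE. A call is an adjusted p under 0.05 from limma, with Benjamini-Hochberg adjustment over all 17860 genes. Of all genes tested, 54.5% were called in SNU1079 (28.7% higher and 25.8% lower) and 53.9% in RBE (27.3% higher and 26.6% lower) at this time. At 6 h, 9 were higher and 3 lower in SNU1079 and 8 higher and 1 lower in RBE, where 28.2% and 24% of all genes were called. The share of the 38 genes that was called at 6 h, 31.6% in SNU1079 and 23.7% in RBE, lay near those backgrounds, and at 16 h it was 68.4% and 63.2%. The higher calls at 6 h, 14% and 11.6% of all genes, and the lower calls, 14.2% and 12.4%, set the level against which the split can be read.

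Glycolytic and other HIF-1 target genes both held calls in each direction. Of the 20 tested glycolytic genes, 10 were higher and 5 lower in SNU1079 at 16 h, and 11 higher and 4 lower in RBE. Of the 16 other targets, 8 were higher and 2 lower in SNU1079 and 6 higher and 2 lower in RBE. The median log2 fold change (YC-1 over DMSO, on the log2(normalised count + 1) scale) of glycolytic genes was 0.20 in SNU1079 and 0.46 in RBE, that of other targets 0.47 and 0.34, and that of all genes 0.06 and 0.02. At 6 h the glycolytic medians were 0.04 and 0.07, those of other targets 0.31 and 0.13, and those of all genes 0.01 and 0. At 6 h, 3 glycolytic genes were higher and 2 lower in SNU1079 and 3 higher and 1 lower in RBE, while other targets gave 5 higher and 1 lower, and 5 higher and 0 lower. The share of glycolytic genes called at 6 h was 25% in SNU1079 and 20% in RBE, near the 28.2% and 24% of all genes. Those counts are thus not a result about the class. For other targets it was 37.5% and 31.2%. At 16 h the share was 75% in each line for glycolytic genes and 62.5% and 50% for other targets, against 54.5% and 53.9% of all genes. Neither class was tested as a class.

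**Figure D1:**
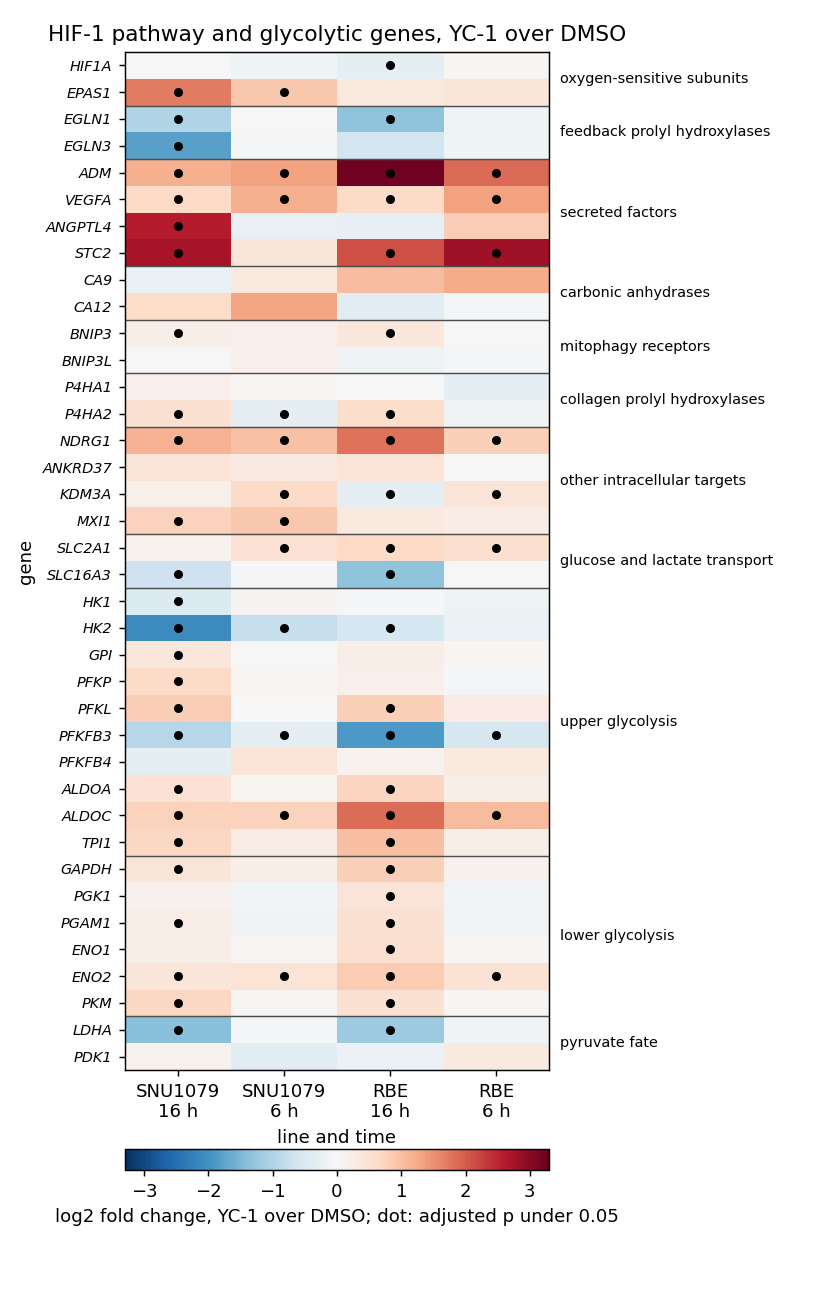
Log2 fold change, YC-1 over DMSO, of the 38 tested genes (rows, grouped by role) in SNU1079 and RBE at 16 h and 6 h (columns), with red for higher and blue for lower with YC-1 and a dot for an adjusted p under 0.05. ADM, VEGFA, NDRG1, ALDOC and ENO2 carry a red cell with a dot in all 4 columns, and PFKFB3 a blue one.

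The lines gave no opposite call for any of the 38 genes, and opposite calls were rare among all genes too (1.19% at 16 h and 0.196% at 6 h). At 16 h, 14 genes (36.8%) were higher in both lines, against 19.3% of all genes tested, and 5 (13.2%: LDHA, PFKFB3, SLC16A3, HK2 and EGLN1) lower in both, against 18.4%. At 6 h, 7 (18.4%) were higher in both, against 7.64% of all genes, and 1 (2.63%) lower, against 8.39%. In all 4 comparisons 5 genes (13.2%) were higher, against 6.18% of all genes, and 1 (2.63%) was lower, against 7.5%. No call was made for 7 (18.4%), against 27.2% of all genes. P4HA2 and KDM3A (5.26%, against 2.53%) were called higher in some comparisons and lower in others. Comparisons at the same time use different DMSO libraries in each line, and comparisons of 1 line at different times do too.

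Part of this split at 16 h rests on how libraries are scaled. Scaling to equal sums moved the median log2 fold change of all genes by -0.36 in SNU1079 and by -0.33 in RBE at 16 h, and by -0.05 and -0.03 at 6 h. With that scaling 31.7% of the calls among all genes were higher in SNU1079, against 52.7% as deposited, and 31% in RBE, against 50.6%. The 38 genes then gave 8 higher and 11 lower in SNU1079 and 8 higher and 8 lower in RBE. The glycolytic median turned to -0.17 in SNU1079 and fell to 0.14 in RBE. Equal upper quartiles shifted the median of all genes by 0.0031 in SNU1079 and by 0.05 in RBE. Of the 71 calls made for the 38 genes in the 4 comparisons, 47 were kept under all 3 other scalings and 18 under every alternative run.

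Sequences before the RefSeq start of 5 of these genes show where the core of the hypoxia response element is and is not found. That core is CGTG preceded by A or G. They cover a gene that fell at every time (PFKFB3), a gene that fell at 16 h (LDHA), genes that rose throughout (ADM and ALDOC) and a gene that changed little (BNIP3). Capitals mark each match to ACGTG or GCGTG on either strand, so that a match on the other strand reads CACGT or CACGC, and the palindrome CACGTG counts once on each strand. Sequences are from RefSeq on GRCh38.p14, 5′ to 3′ on the gene's strand, and where an annotated exon reaches into the window only 30 bases around matches are given.
PFKFB3, chr10:6144671-6144920 (+), bases 250 to 1 before the start: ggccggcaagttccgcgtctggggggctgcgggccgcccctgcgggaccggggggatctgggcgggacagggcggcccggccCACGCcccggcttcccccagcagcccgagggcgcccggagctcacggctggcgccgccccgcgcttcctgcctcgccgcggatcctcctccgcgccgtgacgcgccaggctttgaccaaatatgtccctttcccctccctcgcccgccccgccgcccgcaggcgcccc
LDHA, chr11:18394366-18394395 (+), bases 197 to 168 before the start: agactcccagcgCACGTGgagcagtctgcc
LDHA, chr11:18394469-18394498 (+), bases 94 to 65 before the start: cgactcaCACGTGggttcccgCACGTccgc
ADM, chr11:10304960-10304989 (+), bases 113 to 84 before the start: gagcaggagcgcGCGTGgctgaggaaagaa
ALDOC, chr17:28576916-28576945 (-), bases 50 to 21 before the start: caggcCACGCccccggaggagtCACGTagc
BNIP3, chr10:131982040-131982069 (-), bases 146 to 117 before the start: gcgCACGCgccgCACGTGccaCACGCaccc

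In the 250 bases before the RefSeq start LDHA and ALDOC held 5 matches each, BNIP3 6, and PFKFB3 and ADM 1 each. At least 1 match was found for 24 of the 35 genes with an entry (68.6%), for 12 of 20 glycolytic genes (60%) and for 10 of 13 other targets (76.9%). The motif was present in 56% of the 11221 tested genes with an entry and in 43.2% of all 35116 promoters in the table. LDHA, which fell at 16 h, and ALDOC, which rose, thus hold the same number of matches. SLC16A3, which fell, and TPI1 and PKM, which rose, hold none in this window. A match is a run of letters and not a measured binding site, and VEGFA, NDRG1, BNIP3L and SLC2A3 have no entry.

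The messenger RNAs of the oxygen-regulated subunits went separate ways. HIF1A stood at 10136, 7578 and 12968 normalised counts with YC-1 in SNU1079 at 16 h, against 10481, 9361 and 10117 with DMSO. The YC-1 libraries spread on both sides of the DMSO libraries, and the log2 fold change was 0.00 ± 0.13 (SE), or -0.36 with equal sums (limma adjusted p = 0.0124). In RBE at 16 h HIF1A had 7585, 7787 and 7459 with YC-1 and 9742, 8846 and 10255 with DMSO. All 3 YC-1 libraries lay below all DMSO libraries there (-0.33 ± 0.13, adjusted p = 0.0413), a call that was lost without any 1 of 5 of these 6 libraries, where adjusted p was 0.0667 to 0.131. At 6 h HIF1A was not called in either line. In bulk RNA fewer cells of a kind and less RNA per cell cannot be told apart, here and in what follows.

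EPAS1, which encodes HIF-2 alpha, rose in SNU1079. It had 6798, 11244 and 9165 normalised counts with YC-1 at 16 h, against 2689.8, 2574 and 2919.8 with DMSO. At 6 h it had 9687, 5847 and 5668 with YC-1 and 3581, 3692 and 3792 with DMSO. Every YC-1 library exceeded every DMSO library at both times, by 1.70 ± 0.17 on the log2 scale at 16 h (adjusted p = 5.02e-08) and by 0.89 ± 0.17 at 6 h (adjusted p = 0.000472). The highest library at each time was among those that stood apart, and without them the change was 1.53 at 16 h (adjusted p = 2.36e-08) and 0.64 at 6 h (adjusted p = 0.000414). In RBE EPAS1 was not called at 16 h (0.33, adjusted p = 0.11) or at 6 h (0.40, adjusted p = 0.0976), and the effect at 16 h differed between SNU1079 and RBE by 1.37 ± 0.24 (adjusted p = 0.000749).

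Of the prolyl hydroxylases that act on HIF and are themselves HIF targets, EGLN1 fell in both lines at 16 h. EGLN1, the main oxygen sensor of the pathway, had 842, 677 and 917 normalised counts with YC-1 in SNU1079, against 1290.2, 1682 and 1883 with DMSO. In RBE it had 1306, 1438 and 1325 with YC-1 and 3441, 3316 and 3366 with DMSO. The groups did not overlap in either line, and the log2 fold changes were -0.99 ± 0.21 (adjusted p = 0.000494) and -1.32 ± 0.21 (adjusted p = 2.25e-05). At 6 h EGLN1 was not called (0.01 in SNU1079 and -0.15 in RBE). Its YC-1 libraries in SNU1079 at 6 h read 1105, 2465 and 2328, the lowest of which stood apart, and without the libraries that stood apart the change there was 0.38 (adjusted p = 0.0112).

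EGLN3 was near the floor in SNU1079, with 3.24, 8.05 and 2.21 normalised counts with YC-1 at 16 h, against 50.2, 6.67 and 12.3 with DMSO. The groups overlapped, and the DMSO library at 50.2 stood apart from its mates. The call there (-1.80 ± 0.48, adjusted p = 0.00317) gave -1.46 without the libraries that stood apart. It was lost when only the 12 SNU1079 libraries were fitted (adjusted p = 0.0517) or only the 6 compared (adjusted p = 0.137). In RBE at 16 h EGLN3 had 259, 287 and 263 with YC-1 and 421, 419 and 415 with DMSO, below in all 3 libraries but not called (-0.63, adjusted p = 0.277). The spread used for that test was pooled over both lines and so included the scattered SNU1079 values. A neighbour on the same strand, SPTSSA, overlaps EGLN3 and had 639% of its level.

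Genes of secreted factors held the largest rises. ADM, which encodes the vasodilator peptide adrenomedullin, had 246, 169 and 135 normalised counts with YC-1 in SNU1079 at 16 h and 126, 67.9 and 56.2 with DMSO. RBE at the same time gave 785, 914 and 825 with YC-1 and 59.7, 97.7 and 125 with DMSO. Every YC-1 library lay above every DMSO library in each line. The log2 fold change of ADM at 16 h was 1.17 ± 0.28 in SNU1079 (adjusted p = 0.00146) and 3.21 ± 0.28 in RBE (adjusted p = 6.29e-09). The SNU1079 call was lost when only the 6 libraries compared were fitted (adjusted p = 0.0711), and the value was 1.55 without the libraries that stood apart. At 6 h ADM had 247, 182 and 183 with YC-1 in SNU1079 and 70.5, 71.8 and 101 with DMSO, and in RBE 347, 383 and 337 with YC-1 and 103, 80.6 and 109.7 with DMSO. Again no libraries overlapped, with rises of 1.33 (adjusted p = 0.00119) and 1.86 (adjusted p = 4.07e-05). The effect of 16 h exceeded that of 6 h by 1.35 ± 0.40 in RBE (adjusted p = 0.0231). This difference was lost in 5 of 34 alternatives, namely equal sums (1.05, adjusted p = 0.0733) and leaving out any 1 of 4 of its 12 libraries. The effect at 16 h was smaller in SNU1079 than in RBE (a difference of -2.04 ± 0.40, adjusted p = 0.00178).

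VEGFA, the vascular endothelial growth factor gene, was highest early. It had 12311, 10459 and 10808 normalised counts with YC-1 in SNU1079 at 6 h, against 4889, 5069 and 4995 with DMSO. In RBE at 6 h it had 5349.6, 5298 and 5198 with YC-1 and 2028, 2103 and 2129 with DMSO. The groups lay far apart, with log2 fold changes of 1.16 ± 0.08 in SNU1079 and 1.34 ± 0.08 in RBE (adjusted p = 9.02e-10 and 1.24e-10). At 16 h VEGFA had 5554, 5766 and 6513 with YC-1 in SNU1079 and 4048, 3509 and 3688 with DMSO, a smaller difference of 0.66 with no overlap. It was higher by 0.62 in RBE at that time. The effect at 16 h was smaller than at 6 h in both lines, with differences of -0.50 ± 0.11 in SNU1079 (adjusted p = 0.00482) and -0.72 ± 0.11 in RBE (adjusted p = 0.000213). With DMSO alone VEGFA was also lower at 16 h than at 6 h in SNU1079 (-0.41, adjusted p = 0.002).

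STC2, which encodes the secreted glycoprotein stanniocalcin 2, was a gene of RBE. With YC-1 it had 1521, 1783 and 1569 normalised counts at 16 h, against 326, 405 and 391 with DMSO, and at 6 h 2299, 2486 and 2002 with YC-1, against 366, 289 and 323. The rises in RBE were 2.12 ± 0.70 at 16 h (adjusted p = 0.0139) and 2.79 ± 0.70 at 6 h (adjusted p = 0.00495), with an SE that also carries the spread of the SNU1079 libraries. In SNU1079 at 16 h the 3 YC-1 libraries read 18.5, 23.7 and 0 and the DMSO libraries 0.684, 0 and 0. The call there (2.72, adjusted p = 0.00234) thus rests on 2 libraries of low level. It was 2.14 (adjusted p = 0.0202) without the libraries that stood apart, and was lost with only the 6 libraries compared (adjusted p = 0.153). ANGPTL4, which encodes an inhibitor of lipoprotein lipase, had 13.0, 25.2 and 20.5 with YC-1 in SNU1079 at 16 h and 0, 7.47 and 3.35 with DMSO. Its rise of 2.58 ± 0.52 (adjusted p = 0.000258) was 1.51 without the libraries that stood apart. The call was lost with only the 6 libraries compared and with both times pooled (adjusted p up to 0.0582). The DMSO level of ANGPTL4 was itself lower at 16 h than at 6 h (-2.06, adjusted p = 0.0157). In RBE ANGPTL4 was not called at either time.

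NDRG1, a stress-induced gene widely used as a marker of hypoxia, rose in both lines at both times. It had 618, 828 and 655 normalised counts with YC-1 in SNU1079 at 16 h and 449.5, 303 and 221 with DMSO. RBE libraries at 16 h had 2124, 2188 and 2098 with YC-1 and 587, 599 and 659 with DMSO. The groups did not overlap, and the log2 fold changes were 1.16 ± 0.18 in SNU1079 (adjusted p = 1.73e-05) and 1.80 ± 0.18 in RBE (adjusted p = 4.66e-08). At 6 h NDRG1 had 382, 259 and 338 with YC-1 in SNU1079 and 156, 158 and 183 with DMSO, and in RBE 933, 894 and 928 with YC-1 and 530.0, 554 and 522 with DMSO. These groups did not overlap either, with rises of 0.96 and 0.78. Without the libraries that stood apart the rises in SNU1079 were 1.29 at 16 h (adjusted p = 3.08e-07) and 0.84 at 6 h (adjusted p = 4.18e-05). In RBE the effect was larger at 16 h than at 6 h (a difference of 1.02 ± 0.26, adjusted p = 0.00864), which with equal sums was 0.73 and not called (adjusted p = 0.066). With DMSO alone NDRG1 was higher at 16 h than at 6 h in SNU1079 (0.91, adjusted p = 0.00277).

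Of the remaining intracellular targets, MXI1, a MAX-binding antagonist of MYC, rose in SNU1079 by 0.76 at 16 h and by 0.89 at 6 h and was not called in RBE. With equal sums the MXI1 call at 16 h was lost, and without the libraries that stood apart it was 0.51 (adjusted p = 0.0442). KDM3A, a histone demethylase, had 896, 915 and 823 normalised counts with YC-1 in RBE at 16 h and 1101, 1075 and 1125 with DMSO, but at 6 h 1668, 1552 and 1659.7 with YC-1 and 1207, 1196 and 1220.6 with DMSO. The order of the groups thus turned round between the times. KDM3A was higher at 6 h in SNU1079 (0.62, adjusted p = 0.000363) and in RBE (0.43, adjusted p = 0.00951). At 16 h it was lower in RBE (-0.33, adjusted p = 0.0228), where the change between times was -0.76 ± 0.17 (adjusted p = 0.00325), and not called in SNU1079 (0.16), where it was higher without the libraries that stood apart (0.40, adjusted p = 0.000867). The RBE call at 16 h was lost in 5 of 36 alternatives, 3 of which left out 1 of its 6 libraries. The collagen prolyl hydroxylase P4HA2 ran the other way, higher at 16 h by 0.51 in SNU1079 and by 0.58 in RBE, and lower at 6 h in SNU1079 (-0.29, adjusted p = 0.0257). That call at 6 h was lost in 9 of 36 alternatives, among them leaving out any 1 of 4 of its 6 libraries and fitting only the 12 or the 6 libraries concerned. With equal sums both P4HA2 calls at 16 h were lost. Its paralogue P4HA1 was not called in any comparison, but was in SNU1079 at 6 h without the libraries that stood apart (0.32, adjusted p = 0.0486). The calls for KDM3A in RBE at 16 h and for P4HA2 in SNU1079 at 6 h turned round with both times pooled, to 0.05 and 0.11.

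BNIP3, a receptor for the removal of mitochondria, was one of the steadiest genes. It read 1582, 1618 and 1696 normalised counts with YC-1 in SNU1079 at 16 h, against 1391, 1482 and 1425 with DMSO, and in RBE 1870.5, 1878 and 1777 against 1453, 1411 and 1450.5. The YC-1 libraries were above the DMSO libraries in both lines, by 0.19 ± 0.07 (adjusted p = 0.0277) and 0.36 ± 0.07 (adjusted p = 0.000199). With equal sums these values were -0.17 and 0.03 and neither was called. Its paralogue BNIP3L, the carbonic anhydrase genes CA9 and CA12 and the ankyrin repeat gene ANKRD37 were called in no comparison, although with equal sums BNIP3L was called lower at 16 h, at -0.35 in SNU1079 and -0.47 in RBE. CA9, a classical HIF-1 target at the cell surface, had at most 17.0 normalised counts in any library, and CA12 had 220 to 310 in RBE and at most 8.36 in SNU1079, where it was called at 6 h without the libraries that stood apart (1.96, adjusted p = 0.0175). ARHGEF39 and UFSP2 overlap CA9 and ANKRD37 on the other strand at 2110% and 606% of their levels, and whether reads were assigned by strand is not given in the sources used here.

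**Figure D2:**
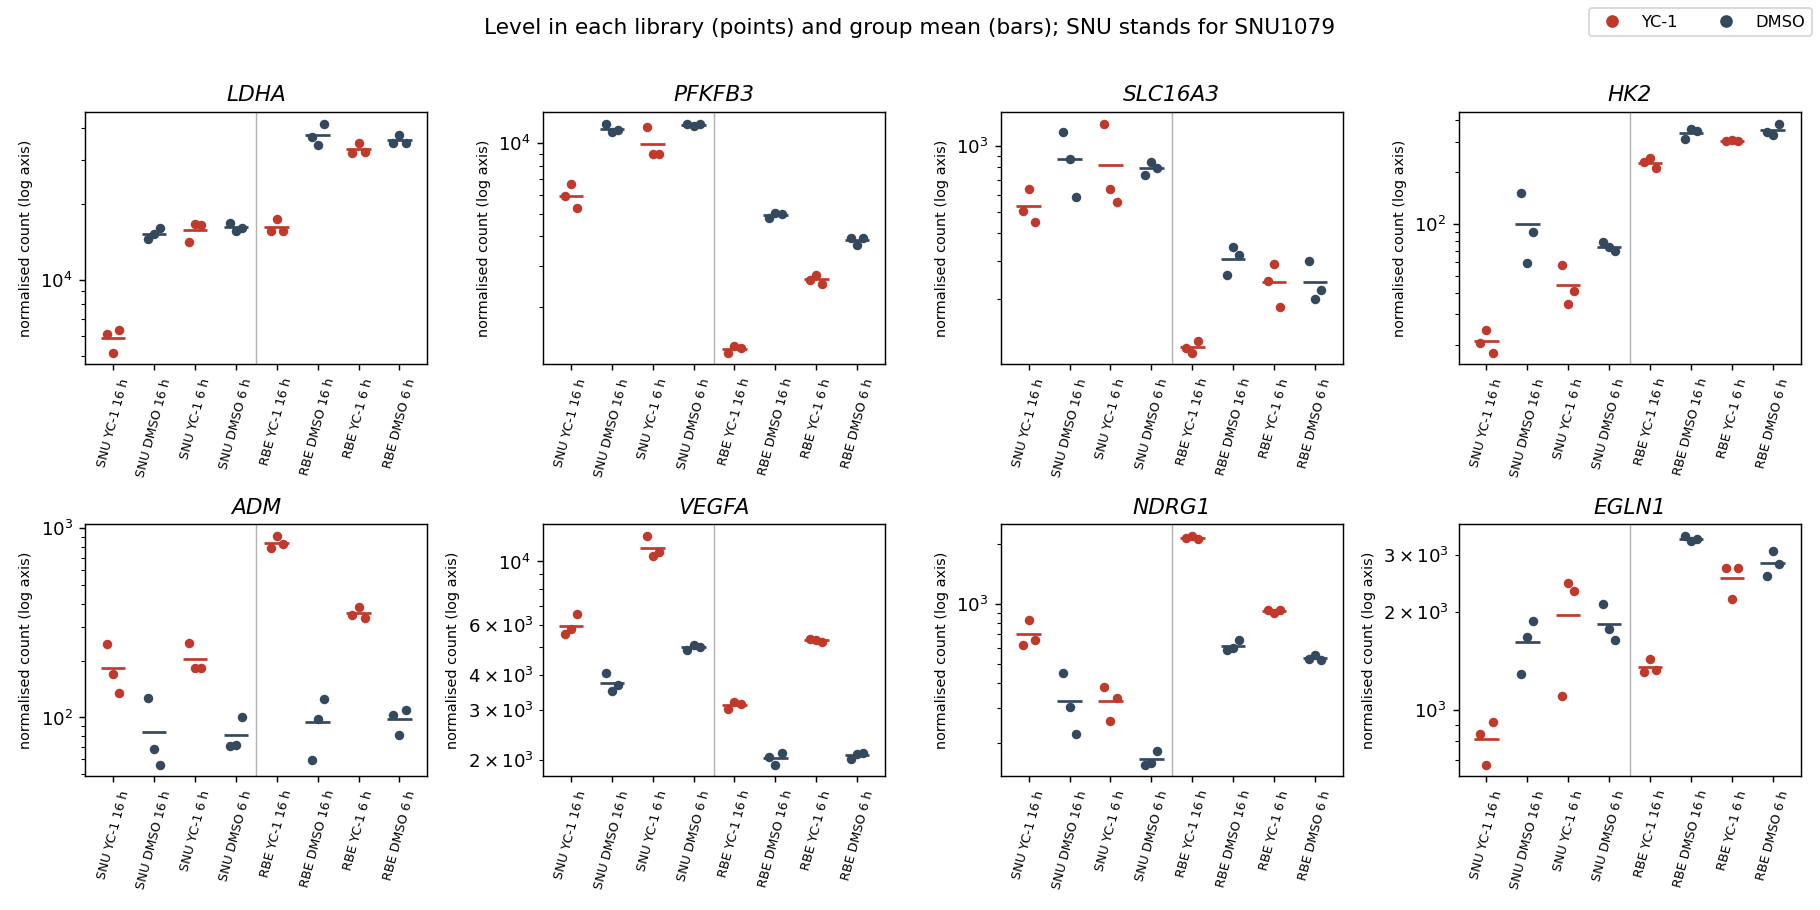
Normalised count (log axis) of 8 genes in each of the 24 libraries (points) with the group mean (bars), YC-1 in red and DMSO in dark blue, SNU1079 left and RBE right of the grey line. LDHA, PFKFB3 and EGLN1 with YC-1 at 16 h lie below DMSO in both lines, and ADM, VEGFA and NDRG1 lie above it.

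Glucose enters these cells mainly through SLC2A1, the glucose transporter GLUT1, as far as transcripts per exon length among SLC2A1, SLC2A3 and SLC2A12 show. SLC2A1 had 1937, 2174 and 1492 normalised counts with YC-1 in SNU1079 at 16 h and 1842, 1723 and 1586 with DMSO, which overlap (0.11, adjusted p = 0.531). In RBE at 16 h it had 2321, 2372 and 2639 with YC-1 and 1398, 1754 and 1530.1 with DMSO, which do not (0.65 ± 0.14, adjusted p = 0.00038). At 6 h SLC2A1 rose in both lines, by 0.47 in SNU1079 and by 0.52 in RBE. The SNU1079 call at 6 h was lost in 6 of 36 alternatives, among them equal sums and the fit without YC-1 replicate 1 (0.32, adjusted p = 0.081), and the RBE call at 16 h was lost with equal sums.

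HK2, the hexokinase most often named as a HIF-1 target, fell in SNU1079. It had 20.5, 24.3 and 18 normalised counts with YC-1 at 16 h, against 151, 59.2 and 89.4 with DMSO, and at 6 h 58.1, 34.5 and 41.1 against 78.3, 73.7 and 69.8. No YC-1 library reached a DMSO library at either time (-2.11 ± 0.24, adjusted p = 2.57e-07 at 16 h and -0.75 ± 0.24, adjusted p = 0.0226 at 6 h). The DMSO library at 151 stood apart, and without the libraries that did so the change at 16 h was -1.87 (adjusted p = 8.24e-08). The call at 6 h was lost without any 1 of 4 of its 6 libraries (adjusted p from 0.0554 to 0.107). In RBE at 16 h HK2 had 228, 240.0 and 211 with YC-1 and 309, 357 and 346 with DMSO, and its call (-0.57 ± 0.24, adjusted p = 0.0498) was lost in 23 of 36 alternatives, though the groups did not overlap. The effect on HK2 at 16 h was lower in SNU1079 than in RBE (a difference of -1.54 ± 0.34, adjusted p = 0.0042).

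HK2 was a small part of the hexokinase signal. Per kilobase of exon, HKDC1, a further hexokinase, made up 93.6% of the summed level of HK1, HK2, HK3 and HKDC1 with YC-1 and 89.8% with DMSO in SNU1079 at 16 h, and 72% and 62.4% in RBE. HK2 made up 0.172% and 0.944% in SNU1079 and 2.92% and 5.52% in RBE at that time. HKDC1 was called higher in all 4 comparisons, by 0.27 in SNU1079 and 0.55 in RBE at 16 h and by 0.47 and 0.81 at 6 h. With equal sums both HKDC1 calls at 16 h were lost, at -0.09 in SNU1079 (adjusted p = 0.547) and 0.22 in RBE (adjusted p = 0.137), and both calls at 6 h were kept. The summed level per kilobase of exon was 2006 ± 344 with YC-1 and 1722 ± 104 with DMSO in SNU1079 at 16 h, and 1279 ± 49 and 1011 ± 57.6 in RBE (SD, n = 3). With equal sums it was 1790 ± 458 with YC-1 and 1954 ± 159 with DMSO in SNU1079, where the order turned round, and 1058 ± 48.9 and 1048 ± 43.0 in RBE. HK1, the common hexokinase, fell in SNU1079 at 16 h (-0.44, adjusted p = 0.0128), where its DMSO level was higher than at 6 h (0.58, adjusted p = 0.0141). The HK1 call at 16 h was lost in 5 of 36 alternatives. Among them were the fits without DMSO replicate 3, without YC-1 replicate 1 and with only the 6 libraries compared.

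PFKFB3 was the gene that fell in all 4 comparisons. Its product makes the sugar phosphate that activates phosphofructokinase and so sets the pace of glycolysis. PFKFB3 had 5921, 6709.7 and 5272 normalised counts with YC-1 in SNU1079 at 16 h and 11979, 11180.1 and 11359.5 with DMSO. RBE libraries at 16 h had 1282, 1374 and 1341 with YC-1 and 4791, 5027 and 4981 with DMSO. The groups were far apart in both lines, with log2 fold changes of -0.95 ± 0.10 (adjusted p = 4.4e-08) and -1.89 ± 0.10 (adjusted p = 2.02e-12). At 6 h PFKFB3 had 11715, 8964 and 8997 with YC-1 in SNU1079 and 12071, 11796 and 12023 with DMSO, a small difference (-0.29, adjusted p = 0.0288) whose adjusted p ran from 0.0599 to 0.132 without any 1 of 5 of these 6 libraries. Without the libraries that stood apart it was -0.41 (adjusted p = 4.54e-05). In RBE at 6 h PFKFB3 fell by 0.55 on the log2 scale (adjusted p = 0.000172).

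The fall of PFKFB3 was larger at 16 h than at 6 h in each line (differences of -0.67 ± 0.13 in SNU1079 and -1.34 ± 0.13 in RBE, adjusted p = 0.00203 and 2.54e-06) and weaker in SNU1079 than in RBE at 16 h (0.93 ± 0.13, adjusted p = 9.81e-05). Per kilobase of exon PFKFB3 held 84.2% of the summed level of PFKFB2, PFKFB3 and PFKFB4 with YC-1 and 96.1% with DMSO in SNU1079 at 16 h, and 88% and 97% in RBE. The sum itself was 1157 ± 101 against 1957 ± 60.2 in SNU1079 and 248 ± 3.92 against 832 ± 18.7 in RBE (SD, n = 3). PFKFB2 rose in SNU1079, by 1.68 at 16 h and by 1.06 at 6 h. PFKFB4 was not called as deposited, and was lower with equal sums in SNU1079 at 16 h (-0.65, adjusted p = 0.00672).

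The other genes of upper glycolysis rose or were not called. The phosphofructokinase genes PFKL and PFKP were higher in SNU1079 at 16 h, by 0.80 and 0.62, and PFKL in RBE by 0.79. With equal sums these 3 calls were lost. GPI, which interconverts hexose phosphates, was called only in SNU1079 at 16 h (0.38), a call lost with equal sums. The aldolase gene ALDOC rose in all 4 comparisons. ALDOC had 773, 765 and 745 normalised counts with YC-1 in SNU1079 at 16 h and 527, 436 and 395 with DMSO, and in RBE 115, 112 and 74.9 against 20.6, 40 and 23. The groups were apart in both lines, by 0.76 ± 0.24 (adjusted p = 0.00959) and 1.85 ± 0.24 (adjusted p = 1.14e-06). With equal sums the SNU1079 call of ALDOC at 16 h was lost. Its call in SNU1079 at 6 h (0.77, adjusted p = 0.0172) was lost without the libraries that stood apart (adjusted p = 0.052). The main aldolase gene, ALDOA, had 22799, 24694 and 17467 normalised counts with YC-1 in SNU1079 at 16 h and 18658, 16562 and 11592 with DMSO, which overlap, and was higher by 0.49 there and by 0.72 in RBE. Both ALDOA calls were lost with equal sums. ALDOC was a minor aldolase, with 4.57% of the summed level of aldolases per kilobase of exon with YC-1 and 3.8% with DMSO in SNU1079 at 16 h, and 0.362% and 0.159% in RBE.

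From triose phosphate isomerase to pyruvate kinase, 5 of the 7 genes (TPI1 and the 6 genes of lower glycolysis) were called higher in SNU1079 at 16 h and 7 of 7 in RBE. Of all genes tested, 28.7% and 27.3% were called higher. These counts belong to the authors' scaling. With equal sums only TPI1 and PKM stayed called higher in SNU1079, and TPI1, GAPDH and ENO2 in RBE. TPI1 had 17169, 17467 and 14297 normalised counts with YC-1 in SNU1079 and 10378, 10451 and 9362 with DMSO, and in RBE 34849, 34729 and 35128 against 17513, 17218 and 18234. No libraries overlapped, and the log2 fold changes were 0.69 ± 0.09 (adjusted p = 2.69e-06) and 0.98 ± 0.09 (adjusted p = 2.05e-08). With equal sums they were 0.33 and 0.66, both still called. GAPDH, which oxidises glyceraldehyde phosphate, had 98356, 84802 and 86252 with YC-1 in SNU1079 and 69685, 71600.4 and 63211 with DMSO, and in RBE 175978, 179902 and 188391 with YC-1 and 101435, 105499 and 110538 with DMSO. It was higher by 0.40 in SNU1079 and by 0.78 in RBE, and with equal sums by 0.03 (not called) and 0.45.

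PKM, the pyruvate kinase gene, had 40059.7, 54114 and 45653 normalised counts with YC-1 in SNU1079 at 16 h and 30666, 28394 and 27514 with DMSO. It was higher by 0.68 ± 0.10 there and by 0.50 ± 0.10 in RBE, and with equal sums by 0.32 and 0.17, of which only the SNU1079 value was called. Without the libraries that stood apart, of which the highest YC-1 library was 1, it was 0.61 in SNU1079 (adjusted p = 1.79e-05). ENO2 rose in all 4 comparisons, by 0.39 in SNU1079 and 0.84 in RBE at 16 h and by 0.46 and 0.48 at 6 h. It had 1428, 1447 and 1524 normalised counts with YC-1 in SNU1079 at 16 h, against 1298, 1039 and 1028 with DMSO, and in RBE 2400.0, 2404 and 2324 with YC-1, against 1341, 1261 and 1394. With equal sums the SNU1079 call of ENO2 at 16 h was lost. ENO2 and its larger relative ENO1 catalyse the same step, and ENO2 held 4.56% of the enolase level per kilobase of exon with YC-1 and 4% with DMSO in SNU1079 at 16 h. PGK1, PGAM1 and ENO1 rose in RBE at 16 h by 0.43, 0.49 and 0.53, and none of these 3 was called there with equal sums. In SNU1079 at 16 h PGAM1 was higher by 0.21, while PGK1 (0.14) and ENO1 (0.19, adjusted p = 0.115) were not called. With equal sums all 3 values were below 0, at -0.16, -0.22 and -0.18, of which only that of PGK1 was called (adjusted p = 0.0177).

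LDHA, which turns pyruvate into lactate at the end of the pathway, fell sharply at 16 h. It had 6105, 5139 and 6342 normalised counts with YC-1 in SNU1079, against 14540, 15177 and 16091 with DMSO. In RBE it had 15665, 17429.7 and 15649 with YC-1 and 36789, 34450.1 and 41696 with DMSO. Every YC-1 library read far below every DMSO library of its line. The log2 fold changes were -1.39 ± 0.09 in SNU1079 (adjusted p = 1.38e-10) and -1.21 ± 0.09 in RBE (adjusted p = 8.63e-10), and both calls held in every alternative run.

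At 6 h LDHA had 14125, 16635 and 16491 with YC-1 in SNU1079 and 16754, 15618 and 16061 with DMSO, and in RBE 31953, 35094 and 32233 against 35072, 37457 and 34828. The groups overlapped, and the changes of -0.04 and -0.11 were not called. The difference between the effects at 16 h and 6 h was -1.35 ± 0.13 in SNU1079 (adjusted p = 1.24e-06) and -1.10 ± 0.13 in RBE (adjusted p = 1.5e-05). LDHB, the other common subunit, singled out after its values were seen, held at most 0.474% of the summed level of LDHA and LDHB per kilobase of exon in any library. LDHB was called in no comparison. PDK1, which restrains the entry of pyruvate into mitochondria, was not called either.

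SLC16A3, which encodes the lactate exporter MCT4, fell with LDHA in RBE. It had 119.9, 114 and 129 normalised counts with YC-1 at 16 h and 258, 346 and 318 with DMSO, which do not overlap (-1.33 ± 0.26, adjusted p = 0.000239). In SNU1079 at 16 h it had 509, 638 and 450.0 with YC-1 and 1166, 879 and 589 with DMSO, and the highest YC-1 library exceeded the lowest DMSO library. The call there (-0.68 ± 0.26, adjusted p = 0.0343) gave -0.59 without the libraries that stood apart and -0.45 (adjusted p = 0.184) without DMSO replicate 1, and was lost without any 1 of 3 other libraries of the 6. In all it was lost in 9 of 36 alternatives, among them no filter on low values and fitting only the 12 or the 6 libraries concerned. At 6 h SLC16A3 was not called. CSNK1D overlaps SLC16A3 on the other strand at 759% of its level. SLC16A1, another lactate transporter, singled out after its values were seen, held 80.7% to 94.4% of the level of SLC16A1, SLC16A3 and SLC16A7 per kilobase of exon in the group means at 16 h.

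**Figure D3:**
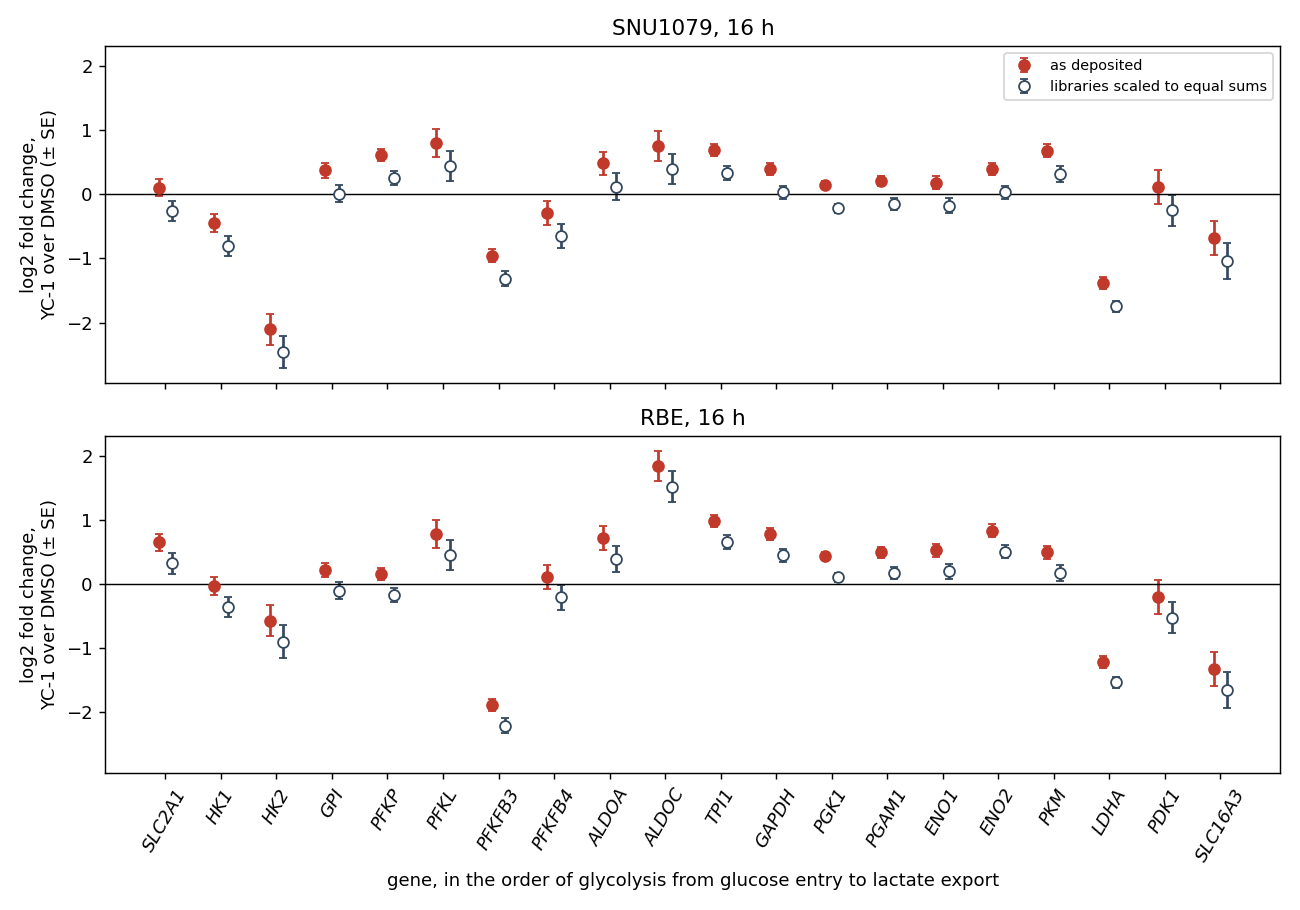
Log2 fold change ± SE at 16 h, YC-1 over DMSO, of 20 glycolytic genes in the order of the pathway, SNU1079 above RBE, as deposited (red) and with libraries scaled to equal sums (open). LDHA, PFKFB3, HK2 and SLC16A3 lie below 0 with either scaling in both lines, while PGK1, PGAM1 and ENO1 are among those that lie below 0 in SNU1079 with equal sums only.

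A ratio within a library does not depend on its scaling. Each gene was therefore set against the mean log2 level of 7 enzymes (ALDOA, TPI1, GAPDH, PGK1, PGAM1, ENO1 and PKM), chosen as the abundant enzymes of the lower pathway with their values known. As deposited, all of these enzymes in RBE and most in SNU1079 were called higher at 16 h. A gene that fell or stayed level therefore reads lower against them, and its separation is not independent support for a fall. LDHA relative to these enzymes was -2.06 with YC-1 and -0.28 with DMSO in SNU1079 at 16 h, a difference of -1.78 ± 0.19 (SE), and -1.49 and 0.36 in RBE, a difference of -1.84 ± 0.09. All YC-1 libraries lay below all DMSO libraries in both lines, as they did for PFKFB3 (-1.35 and -2.52), SLC16A3 (-1.08 and -1.96), HK2 (-2.51 and -1.20) and EGLN1 (-1.39 and -1.95). The levels of SLC16A3 itself overlapped in SNU1079 and separated only as this ratio. NDRG1 lay above in both lines (0.76 and 1.16), and ADM in RBE (2.57) but not in SNU1079, where libraries overlapped (0.77). ALDOC lay above in both lines (0.36 and 1.21), EPAS1 in SNU1079 (1.31) and ENO2 in RBE (0.20). Separation below was not limited to genes called lower. It was also seen for PDK1 (-0.83), EPAS1 (-0.30) and BNIP3 (-0.28) in RBE and SLC2A1 (-0.29) in SNU1079, beside HIF1A in RBE (-0.97). VEGFA at 16 h gave 0.27 in SNU1079 and -0.01 in RBE, so that relative to these enzymes its rise in RBE was seen at 6 h (1.27) and not at 16 h. These ratios show unequal change between genes, not that any gene was constant.

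**Figure D4:**
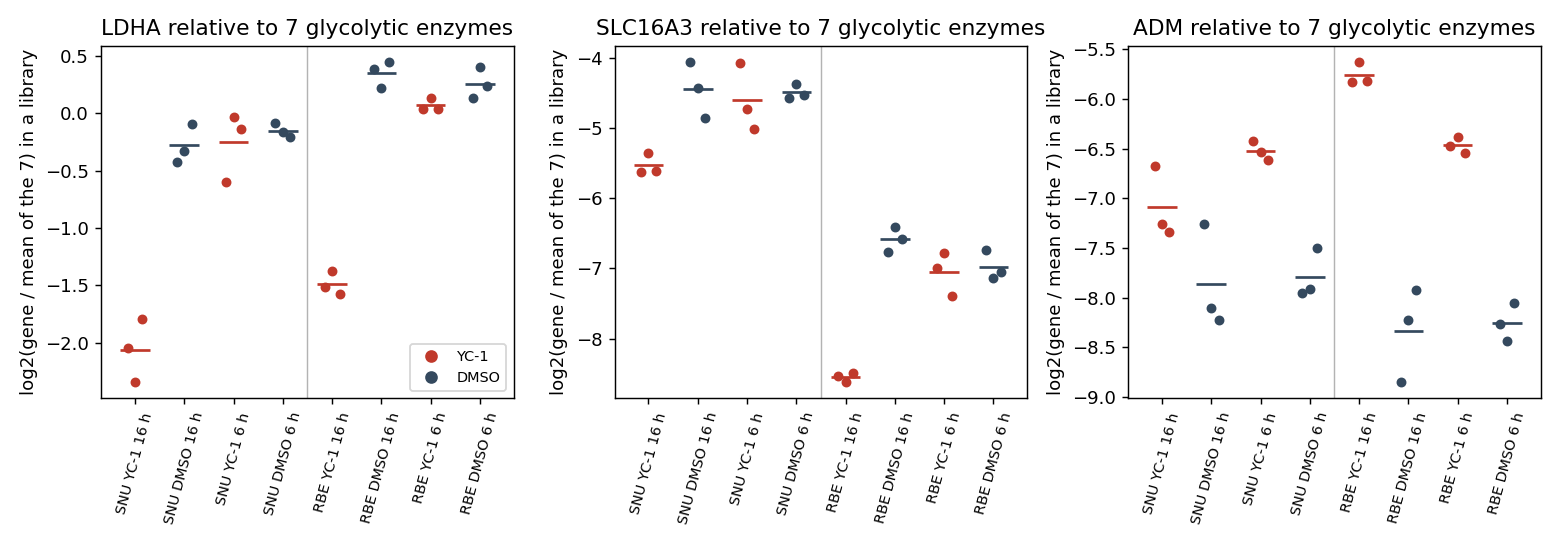
Log2 ratio of LDHA, SLC16A3 and ADM to the mean of 7 glycolytic enzymes in each library (points) with the group mean (bars), YC-1 in red and DMSO in dark blue, SNU1079 left and RBE right of the grey line. At 16 h LDHA and SLC16A3 with YC-1 lie below all DMSO libraries of their line, and ADM in RBE lies above them.

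The effect of YC-1 changed between 16 h and 6 h for 12 of the 38 genes in SNU1079 (7 higher and 5 lower at 16 h), against 17% of all genes (8.47% higher and 8.53% lower). In RBE it changed for 16 (10 higher and 6 lower), against 18.2% of all genes (8.8% higher and 9.43% lower). Between the lines it differed for 9 at 16 h, 4 higher and 5 lower in SNU1079 than in RBE, against 14.6% of all genes (8.17% higher and 6.43% lower). At 6 h limma called 0 of the 38, against 1.54% of all genes (0.767% higher and 0.773% lower), with 2 at an unadjusted p under 0.05. Without the libraries that stood apart, 14 differed between the lines at 16 h and 2 at 6 h.

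The lines differed before treatment. With DMSO at 16 h, 7 of the 38 genes were higher and 18 lower in SNU1079 than in RBE, where 55.1% of all genes were called (25.9% higher and 29.3% lower). At 6 h 8 were higher and 21 lower, where 56.4% were called (27.2% and 29.2%). The log2 difference at 16 h was -1.30 for LDHA, -0.90 for PGK1, -1.18 for PKM, -1.85 for HK2 and -0.98 for NDRG1. PFKFB3 was higher by 1.22, SLC16A3 by 1.47, ALDOC by 4.02 and VEGFA by 0.88. STC2 (-8.29), CA12 (-7.14), ANGPTL4 (-6.63) and EGLN3 (-4.59) were mainly RBE genes. Between 16 h and 6 h with DMSO, 3 of the 38 were higher and 3 lower in SNU1079, where 8.57% of all genes were called (3.82% higher and 4.75% lower). In RBE limma called 0 of the 38, with 1 at an unadjusted p under 0.05, and 0.0448% of all genes (0.0056% higher and 0.0392% lower).

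Genes around the pathway held calls in both directions. Of 16 tested regulators of HIF, 4 were higher and 7 lower in SNU1079 and 4 higher and 7 lower in RBE at 16 h (medians -0.27 and -0.24). The share called was 68.8% in each line, against 54.5% of all genes in SNU1079 (28.7% higher and 25.8% lower) and 53.9% in RBE (27.3% and 26.6%). HIF1AN, the asparaginyl hydroxylase that blocks HIF activity, fell to 839.6 with YC-1, against 1849.9 with DMSO, in SNU1079 (-1.15, adjusted p = 5.59e-07) and to 792, against 2202, in RBE (-1.47, adjusted p = 1.66e-08). CUL2, the scaffold of the VHL ligase, fell in both lines (-1.24 in SNU1079 and -1.55 in RBE), while its adaptor ELOB rose by 1.10 and 1.20, the SNU1079 call of which was lost with equal sums. ARNT2, a relative of ARNT, fell in RBE by 1.70 at 16 h and by 1.07 at 6 h, and in SNU1079 at 6 h (-0.93, adjusted p = 0.00014). In SNU1079 at 16 h ARNT2 was not among the genes named by size of change. CITED2, a HIF-induced protein that competes with HIF for its coactivators, rose at 6 h by 1.04 in SNU1079 and by 0.98 in RBE. At 6 h these regulators gave 3 higher and 4 lower in SNU1079 and 2 higher and 3 lower in RBE. The share called was 43.8% and 31.2%, against 28.2% and 24% of all genes.

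Of 30 further HIF-1 targets, 6 were higher and 9 lower in SNU1079 at 16 h and 7 higher and 11 lower in RBE, with medians of -0.25 and -0.37. The share called, 50% in SNU1079 and 60% in RBE, lay near the 54.5% and 53.9% of all genes, so the count is not a result about this list. ERRFI1, a feedback inhibitor of the EGF receptor, rose by 1.57 in SNU1079 and by 1.15 in RBE at 16 h. STC1, a relative of STC2, rose in RBE by 2.15. HILPDA, a lipid droplet protein induced by hypoxia, fell by 2.05 in SNU1079 and by 1.85 in RBE at 16 h. INSIG2, which retains sterol sensors in the endoplasmic reticulum, fell as well (-2.15 and -2.47), and so did the histone demethylase gene KDM4C (-1.31 and -1.91). At 6 h the list gave 3 higher and 6 lower in SNU1079 and 4 higher and 6 lower in RBE (medians -0.16 and -0.13). The share called was 30% and 33.3%, against 28.2% and 24% of all genes.

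Of 23 tested further genes of glycolysis and pyruvate use, 8 were higher and 5 lower in each line at 16 h (medians 0.05 in SNU1079 and 0.23 in RBE). The share called was 56.5% in each line, near the 54.5% and 53.9% of all genes. At 6 h the counts were 5 higher and 0 lower in SNU1079 and 6 higher and 2 lower in RBE. The share called was 21.7% and 34.8%, against 28.2% and 24% of all genes. ENO3, an enolase typical of muscle, rose by 1.71 in SNU1079 and by 1.47 in RBE at 16 h, and TIGAR, a p53-induced enzyme that lowers the activator made by PFKFB3, rose in RBE by 1.30. PDP1, the phosphatase that activates pyruvate dehydrogenase, fell by 1.79 in SNU1079 and by 1.26 in RBE. PDK4, which opposes it, fell in RBE by 1.91, and DLAT, a subunit of the same complex, fell in SNU1079 by 1.11. SLC16A7, a monocarboxylate transporter, fell in SNU1079 (-1.07, a call lost without the libraries that stood apart) and in RBE (-1.76).

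The genes that rose covered shorter stretches of the genome than those that fell. At 16 h the median span of the 19 genes called higher in SNU1079 was 15.6 kb and that of the 7 called lower 61.3 kb, and in RBE it was 15.6 kb for 17 and 52.7 kb for 7. Among all genes these medians were 16.5 and 59.8 kb in SNU1079 and 14.3 and 71.6 kb in RBE. The rank correlation between span and fold change (Spearman's rho) was -0.35 in SNU1079 and -0.55 in RBE at 16 h across the 38 genes, and -0.31 and -0.41 across 17258 genes, which share libraries and are not independent. LDHA departs from this order. At 14 kb (chromosome 11, 18394388 to 18408425, GRCh38) it is shorter than most of the 38 genes, yet it fell.

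**Figure D5:**
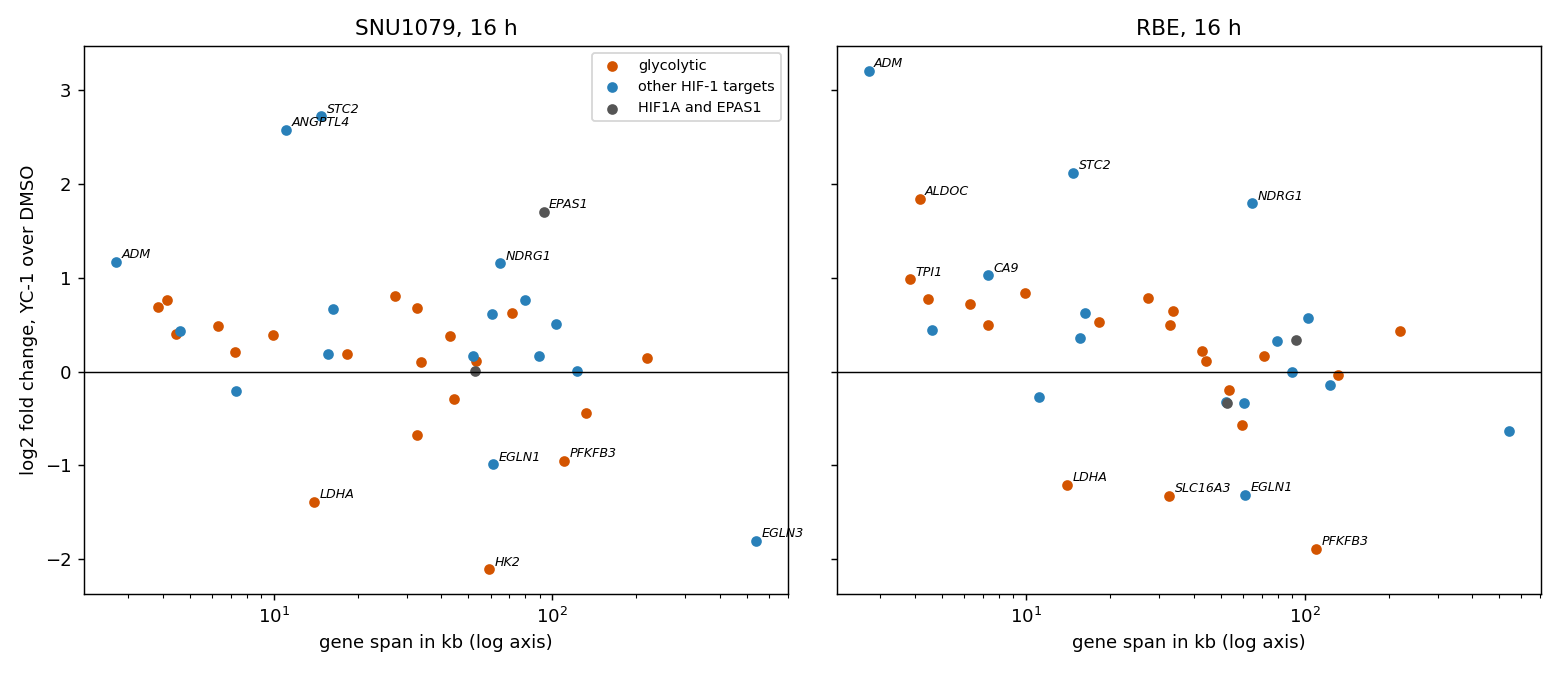
Log2 fold change at 16 h, YC-1 over DMSO, against gene span in kb (log axis) for glycolytic genes (orange), other HIF-1 targets (blue) and HIF1A and EPAS1 (grey), SNU1079 left and RBE right, with names for changes over 0.9 in size. LDHA lies low among short genes in both panels, while EGLN1 and PFKFB3 lie low among long ones.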

How the data were processed

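The authors deposited 1 table of normalised counts, a depth-corrected signal per gene (the deposited values), for all 24 libraries. Per the labels' protocols, RNA was extracted with a Qiagen RNeasy Plus kit and libraries were made with a TruSeq Stranded mRNA kit. Per the submitters' processing notes, STAR, DESeq2 and the build hg38 were used. How reads were counted, with which strand setting and against which annotation release, is not given in the sources used here. Only 44.3% to 73.1% of low values were whole multiples (tolerance 0.1) of each library's commonest low value, so whole reads were not recovered and the raw depth is unknown.

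Values were taken as log2(normalised count + 1). Genes with at least 10 in at least 3 libraries (17860) were fitted over all 24 libraries in 8 groups with limma 3.58.1 in R 4.3.3, with Benjamini-Hochberg adjustment over all genes and a threshold of 0.05. Tables and figures used Python 3.11.15, pandas 2.3.3 and matplotlib 3.10.9. Simulated data took their means from DMSO in RBE at 6 h and their spread from an average over the 8 groups (17860 genes). Set changes were added to the YC-1 columns of RBE at 6 h. The fit recovered 81% of 100 genes changed by 1 and 96% of 100 changed by 2 on the log2 scale, and 5.85% of 188 calls were false. The changed genes were far fewer than those called in the data. They were drawn from genes above about 100 normalised counts, so these rates do not cover genes of low level. Per-length levels divide by summed exon bases, and gene positions are those of GENCODE 29 on GRCh38. The 250 bases before each start came from RefSeq on GRCh38.p14.

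The members and the lists of further genes were chosen with earlier results of these data known. From each further list and comparison of YC-1 with DMSO, up to 3 called genes per direction by size of change could be named, where the group with the higher mean reached 100. Alternatives covered scaling, pseudocount, filter, array weights, the libraries fitted, pooled times, a replicate block and each library left out. Same-numbered libraries deviated together (r over 0.1) in 1 of 12 pairs, so the numbers were not taken as pairs. P-values rest on the spread between repeat libraries, estimated for each gene over all 8 groups, so those of 1 line also carry the spread of the other. They do not measure a spread between cell lines.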

Additional observations from a re-analysis of the deposited data

Results flagged for a closer look

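These values are tested differences between effects of YC-1 (log2 fold change in 1 condition minus that in another), each with a limma adjusted p under 0.05 over 17860 genes. In SNU1079 the effect at 16 h exceeded that at 6 h for EPAS1 (0.81), P4HA2 (0.80), PFKP (0.56), TPI1 (0.44), PGAM1 (0.33), PKM (0.65) and ANGPTL4 (2.83). It was lower at 16 h there for VEGFA (-0.50), EGLN1 (-1.001), HK2 (-1.36), PFKFB3 (-0.67) and LDHA (-1.35).

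In RBE the effect at 16 h exceeded that at 6 h for ADM (1.35), BNIP3 (0.34), NDRG1 (1.02), P4HA2 (0.70), TPI1 (0.79), GAPDH (0.63), PGK1 (0.52), PGAM1 (0.58), ENO1 (0.45) and PKM (0.44). It was lower at 16 h for VEGFA (-0.72), EGLN1 (-1.17), KDM3A (-0.76), PFKFB3 (-1.34), LDHA (-1.10) and SLC16A3 (-1.33). These differences did not stand equally firm. In SNU1079 that of PGAM1 was lost in 29 of 34 alternatives, TPI1 in 11, EGLN1 and EPAS1 in 9 each, PFKP in 4, PKM in 3, VEGFA and ANGPTL4 in 2 each, HK2, P4HA2 and PFKFB3 in 1 each and LDHA in 0. In RBE PKM was lost in 16 of 34, ENO1 in 8, ADM in 5, BNIP3 in 4, P4HA2, GAPDH, PGK1 and PGAM1 in 2 each, NDRG1, VEGFA, KDM3A, TPI1 and SLC16A3 in 1 each, and EGLN1, PFKFB3 and LDHA in 0.

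At 16 h the effect was higher in SNU1079 than in RBE for EPAS1 (1.37), PFKP (0.46), PFKFB3 (0.93) and ANGPTL4 (2.85), and lower for ADM (-2.04), HK2 (-1.54), ALDOC (-1.09), PGK1 (-0.29) and ENO2 (-0.44). For PFKFB3 this means a smaller fall in SNU1079, and for ADM and ALDOC a smaller rise. ANGPTL4 is near the floor in the SNU1079 libraries. Of 33 alternatives PGK1 and PFKP were lost in 11 each, ENO2 in 10, ALDOC in 7, PFKFB3 and ANGPTL4 in 1 each, and EPAS1, ADM and HK2 in 0. Without the libraries that stood apart PFKP gave 0.33 (adjusted p = 0.0527), ALDOC -0.98 (adjusted p = 0.0696) and ANGPTL4 1.78.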

How the results depend on the processing

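Raw depth is unknown, so no counting interval was given. At 16 h scaling decides the sign of small changes. With equal sums, HIF1A (-0.36), BNIP3 (-0.17), BNIP3L (-0.35), PGK1 (-0.22) and PGAM1 (-0.16) reversed in SNU1079, as did BNIP3 (-0.0551) and PGAM1 (-0.0365) with equal sums without mitochondrial genes. With both times pooled, KDM3A in RBE at 16 h (0.051) and P4HA2 in SNU1079 at 6 h (0.11) reversed. For these and the following values the cause was not tested, beyond fewer libraries in some fits.

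With equal sums SNU1079 at 16 h gave 8 of the 38 genes higher and 11 lower, with medians of -0.17 for glycolytic genes and 0.11 for other targets, and RBE at 16 h gave 8 higher, with medians of 0.14 and 0.0123, while 8 changed between times in RBE. The split of all calls between times went to 13.4% higher in SNU1079, against 49.8% as deposited, and to 14.1% in RBE, against 48.2%. Without mitochondrial genes in the sums, SNU1079 at 16 h gave 12 higher, with medians of -0.047 and 0.23, and RBE medians of 0.27 and 0.15, and 39% and 39.6% of all calls were higher. Equal upper quartiles gave a glycolytic median of 0.51 in RBE at 16 h. Restricting the glycolytic list to enzymes of the intermediates gave 0.39 in SNU1079 and 0.50 in RBE.

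Array weights raised the calls among all genes at 6 h to 8145 in SNU1079 and 8234 in RBE, with 15 of the 38 genes higher and 7 lower in SNU1079 and 14 higher in RBE. They gave a median of 0.20 for other targets in SNU1079 at 16 h. Between times they gave 6301 genes (21 of the 38) in SNU1079 and 6944 genes in RBE, and between lines 4867 (17 of the 38) at 16 h and 2590 (7 of the 38) at 6 h. Fitting 12 libraries of a line gave 3332 genes at 6 h in SNU1079 with 0 of the 38 lower, 6760 in RBE with 2 lower, and between times 1078 (3 of the 38) and 6229. Fitting 6 libraries gave 6363 genes in SNU1079 at 16 h with 9 higher and 4 lower, and at 6 h 0 lower in SNU1079 and 2 in RBE.

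With both times pooled, 8465 genes were called in SNU1079 (14 of the 38 higher and 4 lower) and 8282 in RBE (13 higher and 4 lower), with RBE medians of 0.22 and 0.23. Requiring a log2 fold change of at least 1 left, at 16 h, 5502 genes in SNU1079 (5 of the 38 higher and 3 lower) and 5283 in RBE (4 and 4), and at 6 h 2150 (2 and 0) and 1724 (4 and 0). Between times it left 1436 (4 of the 38) and 1419 (6), and between lines 1355 (5) at 16 h and 161 at 6 h. Without the 3 libraries that stood apart, a choice made after seeing the data, 5343 genes in SNU1079 and 5565 in RBE changed between times, 4027 (14 of the 38) differed between lines at 16 h and 1153 (2) at 6 h, and 2 were lower in RBE at 6 h. A pseudocount of 5 gave a median of 0.30 for other targets in SNU1079 at 16 h, and 1 of the 38 differed between lines at 6 h.

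The replicate block, although the numbers did not pair the libraries, left 1 of the 38 lower in SNU1079 at 6 h and 138 genes between lines at 6 h. Same-numbered libraries had r from -0.147 to 0.188, and 2 of 12 pairs correlated best with their own number. Leaving out 1 library moved the genes lower in RBE at 16 h between 4 and 7 and in SNU1079 at 6 h between 0 and 3. The glycolytic median ran from 0.43 to 0.47 in RBE at 16 h and from 0.0528 to 0.12 at 6 h, and that of other targets from 0.23 (without YC-1 replicate 3) to 0.55 in SNU1079 at 16 h. Calls between times in SNU1079 ran from 2240 to 4691, the most without YC-1 6 h replicate 1. Of the 38 genes, 5 (without RBE YC-1 16 h replicate 1) to 13 (without SNU1079 YC-1 16 h replicate 2) differed between lines at 16 h and 0 to 1 at 6 h.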
